A study of Caenorhabditis elegans with 2 samples.

Results

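Genes that regulate the cell cycle were examined for binding of CND-1, a NeuroD-like transcription factor with a basic helix-loop-helix (bHLH) domain that is expressed in neuronal precursors of the embryo. The set holds 38 genes named by their roles in the cell cycle, and all 38 matched a symbol among the 19973 nuclear protein-coding genes of the annotation. A gene counts as having a CND-1 summit when the highest point of a ChIP-seq peak lies at most 1500 bp upstream or 500 bp downstream of a start of its protein-coding transcripts, called its window here. The data come from chromatin immunoprecipitation followed by sequencing (ChIP-seq) of whole mixed-stage, mixed-sex Caenorhabditis elegans embryos, obtained by bleaching and labelled with an age of 3 hours. The strain was OP349, with genotype unc-119(ed3) III; wgIs349, in which CND-1 carries a C-terminal GFP-FLAG tag, and the antibody recognised GFP. The antibody label of both samples names cnd-1, the target protein. There were 2 biological replicates of this 1 group, and no control sample was analysed here. The embryos were whole, so strong binding in few cells and weak binding in many cells cannot be told apart.

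Cyclin-dependent kinases (CDKs) bound to cyclins drive the steps of the cell cycle, and CDK inhibitors hold cells in a quiescent state. The retinoblastoma protein LIN-35 acts with E2F and DP proteins and with the DREAM complex to repress genes in cells that do not divide. CDC-25 phosphatases switch mitotic CDKs on, and Wee1 and Myt1 kinases switch them off. The SCF complex and the anaphase-promoting complex (APC/C) are ubiquitin ligases that mark cyclins, inhibitors and other regulators for destruction. In the C. elegans embryo, neuronal lineages divide several times before their cells leave the cycle and differentiate.

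Peaks came as 4 lists made by the authors. The thresholded list, which draws on both replicates, held 1940 nuclear peaks, and the pooled list and the list of each replicate held 30000 regions each, in which peaks are mixed with background. The deposited signal is a value of the authors' peak caller, without a stated scale. It ran from 103 to 1351 in the nuclear peaks of the thresholded list, and rank 1 is the strongest nuclear region of a list. Sequencing depth is unknown from these lists, and intervals given cover the counting of genes alone.

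Of the 38 cell cycle regulators, 11 had a thresholded CND-1 summit in their window, or 28.9% (95% exact interval 15.4 to 45.9), against 7.38% of all protein-coding genes. They were the retinoblastoma gene lin-35, the DREAM genes lin-9, lin-53 and lin-54, the kinase gene cdk-4, the cyclin genes cye-1 and cya-1, the inhibitor gene cki-2, the phosphatase genes cdc-14 and cdc-25.2, and the checkpoint kinase gene bub-1. The other 27 had none. The gene identifiers are WBGene00000406 for cdk-4, WBGene00003037 for lin-54, WBGene00000517 for cki-2, WBGene00003036 for lin-53, WBGene00000383 for cdc-14, WBGene00000863 for cya-1, WBGene00002998 for lin-9, WBGene00000871 for cye-1, WBGene00000387 for cdc-25.2, WBGene00000275 for bub-1 and WBGene00003020 for lin-35. The strongest 1940 nuclear regions of replicate 1 alone placed 10 members at a summit, against 7.17% of all genes, and those of replicate 2 placed 13, against 7.20%. The members were chosen with earlier results of these data known, so no test was made of their share.

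Weak regions were also common at these genes. In the pooled list 32 of the 38 members had a region in their window (84.2%), against 50.2% of all genes. In the list of replicate 1 there were 28 (73.7%), against 51.1% of all genes, and in that of replicate 2 there were 30 (78.9%), against 50.1%. Each of the replicate lists held a region in the window of 25 members (65.8%), against 37.6% of all genes. These regions need not be at the same site. That of cdc-25.3 lay 283 bp upstream of the start in replicate 1 and 348 bp downstream in replicate 2. The genes cyb-2.1, cyb-2.2, cdc-25.4 and wee-1.1 had none in any list.

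**Figure D1:**
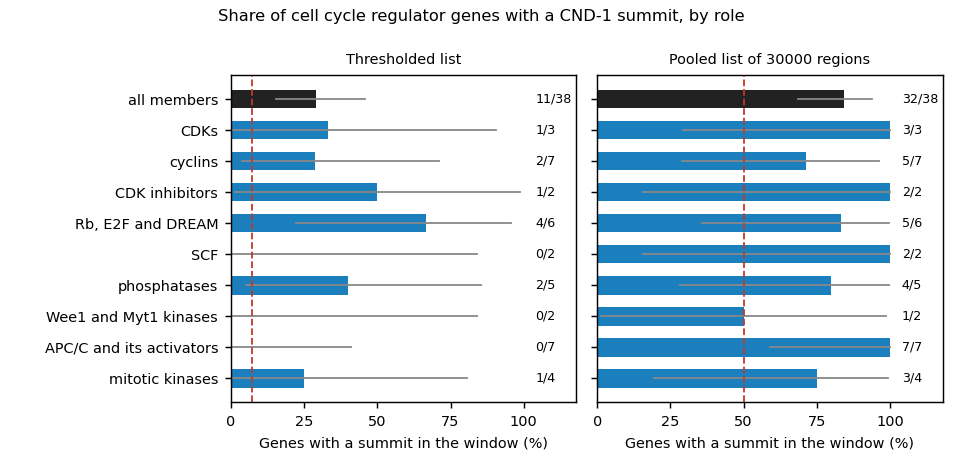
Share of cell cycle regulator genes with a CND-1 summit in their window (x axis, percent), by role, in the thresholded list (left) and in the pooled list (right). Grey lines are 95% exact intervals, counts stand at the right of each row and the red dashed lines mark all protein-coding genes (7.38% and 50.2%). In the thresholded list the Rb, E2F and DREAM genes have 4 of 6, or 2 of 6 when peaks go to the nearest start alone, and the APC/C genes have 0 of 7 there and 7 of 7 in the pooled list.

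Among genes of the Rb, E2F and DREAM group, 4 of 6 had a thresholded summit (66.7%, 95% exact interval 22.3 to 95.7), against 7.38% of all genes. The gene lin-54, for a DNA-binding subunit of DREAM, had a peak 370 bp upstream of its first start with signal 275 and rank 282. In replicate 1 that site had signal 129 and rank 307, and in replicate 2 signal 147 and rank 276. The site ranked alike in both replicates, and it lies closer to another gene: the start of rpl-12, a ribosomal protein gene on the opposite strand, is 23 bp away, and that of tag-115 is 1260 bp away. At lin-9, for another DREAM subunit, the peak lay 154 bp upstream of the start with signal 131 and rank 1265. The start of unc-32 on the opposite strand is 1330 bp from that summit. Its replicate values were signal 58.5 and rank 1603 in replicate 1, and signal 72.9 and rank 1169 in replicate 2. A second and stronger peak lay in an intron of lin-9, 2836 bp downstream of the start, outside the window that defines a summit (signal 210, rank 501). The 100 bp centred on these summits are shown because they are the shared lin-54 and rpl-12 promoter and the pair of sites at lin-9. They come from the RefSeq genome of the WBcel235 assembly (ce11), read on the plus strand as are all sequences here, with E-boxes, the letters CANNTG to which bHLH factors bind, in capitals. The intronic site of lin-9 holds an E-box, and the promoter sites of lin-54 and lin-9 hold none.
lin-54 promoter (chrIV:13240624-13240723): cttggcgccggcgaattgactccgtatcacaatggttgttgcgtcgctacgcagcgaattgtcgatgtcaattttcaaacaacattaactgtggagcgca
lin-9 promoter (chrIII:8904235-8904334): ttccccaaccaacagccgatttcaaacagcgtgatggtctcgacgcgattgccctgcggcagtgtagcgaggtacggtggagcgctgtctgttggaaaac
lin-9 intron (chrIII:8901245-8901344): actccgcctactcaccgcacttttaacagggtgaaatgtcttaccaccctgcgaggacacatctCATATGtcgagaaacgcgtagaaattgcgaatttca

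The retinoblastoma gene lin-35 had the strongest summit of this group after lin-54, at chrI:5807303-5807698, 208 bp upstream of its start, with signal 273 and rank 292. Replicate 1 gave signal 137 and rank 272, and replicate 2 signal 137 and rank 324. The promoter is shared, since the start of vps-51 on the opposite strand lies 210 bp from the same summit. The gene lin-53, for a histone-binding protein found in DREAM and in other chromatin complexes, had a peak at chrI:9619814-9620209, 252 bp upstream of its start, with signal 179 and rank 698. It had signal 92.8 and rank 631 in replicate 1, and signal 87.5 and rank 828 in replicate 2. That summit lies slightly nearer to nra-2, whose start is 215 bp away on the opposite strand. When a peak was given to the nearest start alone, lin-54 and lin-53 lost theirs and 2 of the 6 genes remained, against 5.33% of all genes under that assignment.

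The E2F and DP genes themselves had no thresholded summit. The gene efl-1, for an E2F protein, had a weak pooled region 230 bp upstream of its start (signal 64.0, rank 6081), with none in the window in replicate 1 and the strongest ranking 2412 in replicate 2. The gene dpl-1, for the DP partner, had no pooled region, and its 1 region in replicate 2 ranked 15477. The nearest thresholded summits lay 223 kb from the start of efl-1 and 70.7 kb from that of dpl-1.

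**Figure D2:**
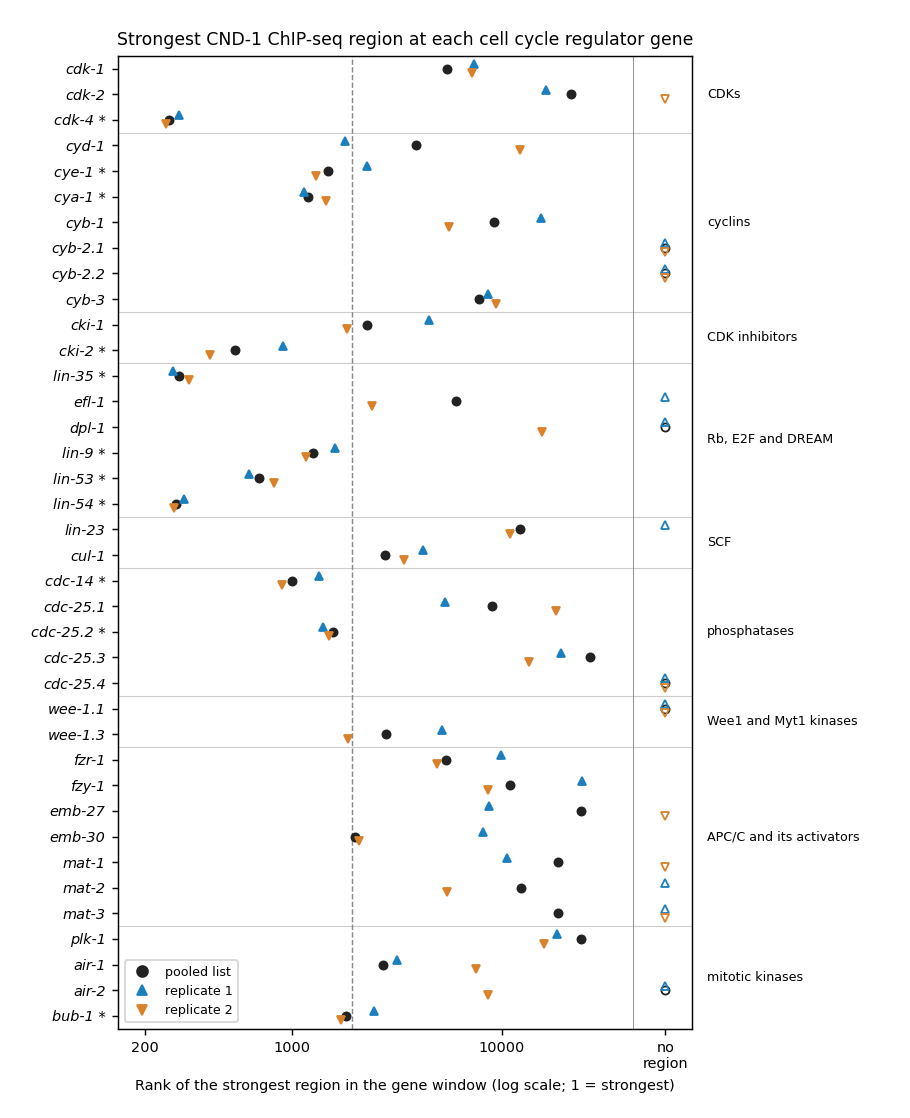
Rank of the strongest region in the window of each of the 38 genes (x axis, log scale, 1 is strongest), in the pooled list (black circles), replicate 1 (blue triangles) and replicate 2 (orange triangles), grouped by role. Open symbols at the right mean no region in that list, asterisks mark the 11 genes with a thresholded summit, and the dashed line stands at rank 1940. The genes cdk-4, lin-35 and lin-54 rank 324 or stronger in each list, while cyd-1, efl-1 and emb-30 differ widely between replicates.

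Of the CDK genes, cdk-4 had the strongest summit of all 38 members. CDK-4 is the partner of cyclin D and acts in the first gap phase. Its peak, 301 bp upstream of the start, had signal 286 and rank 260, with signal 133 and rank 292 in replicate 1 and signal 154 and rank 253 in replicate 2. The replicates placed it at nearly the same rank, with summits 5 bp and 31 bp from the one of the thresholded list. The start of F18H3.1, on the opposite strand, lies 451 bp away, so cdk-4 is the nearer of the 2 genes. The summit window is shown because it holds the CAGCTG form of the E-box. It is the only one of its kind among the 12 peaks in the windows of these genes, and 6.86% of all nuclear thresholded peaks hold this form.
cdk-4 promoter (chrX:13519162-13519261): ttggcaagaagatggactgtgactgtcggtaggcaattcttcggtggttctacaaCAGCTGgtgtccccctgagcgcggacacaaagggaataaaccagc

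The mitotic kinase gene cdk-1 had a pooled region 120 bp upstream of its start with signal 66.4 and rank 5508, which ranked 7374 and 7194 in replicates 1 and 2 by the strongest region in the window. The S-phase kinase gene cdk-2 had a weaker one (signal 38.4, rank 21417), absent from replicate 2. The nearest thresholded summits lay 18.1 kb from the start of cdk-1 and 59.8 kb from a start of cdk-2.

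The cyclin D gene cyd-1 had no thresholded summit in its window, although 3 peaks lay inside the gene. They lie in introns, 4305, 5352 and 10811 bp downstream of the first start. Their signals were 148, 138 and 175 and their ranks 997, 1141 and 724. In replicate 1 they ranked 901, 1329 and 1118, and in replicate 2 they ranked 1301, 1133 and 563. All 3 were thus within the strongest 1940 nuclear regions of each replicate. The second start of cyd-1 lies between the peaks, and the nearest of them is 2280 bp upstream of it. A region in the window, 223 bp upstream of that second start, ranked 3901 in the pooled list, with rank 1790 in replicate 1 and rank 19029 in replicate 2, where a region at the first start ranked 12251. The intronic summit windows are shown because each of them holds an E-box, as do 51.8% of all intronic and intergenic nuclear peaks.
cyd-1 intron, first site (chrII:12984846-12984945): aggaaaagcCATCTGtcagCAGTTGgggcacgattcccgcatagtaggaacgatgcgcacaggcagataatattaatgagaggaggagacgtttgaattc
cyd-1 intron, second site (chrII:12985893-12985992): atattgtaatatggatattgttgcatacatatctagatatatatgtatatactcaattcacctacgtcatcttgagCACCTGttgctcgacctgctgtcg
cyd-1 intron, last site (chrII:12991352-12991451): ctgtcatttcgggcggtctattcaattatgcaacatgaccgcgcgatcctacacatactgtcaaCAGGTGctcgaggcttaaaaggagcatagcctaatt

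The cyclin A gene cya-1 had a peak at chrIII:9109661-9110056, with its summit in intergenic sequence 587 bp before the start and no other coding gene's window over it. Its signal was 134 and its rank 1202, with signal 68.6 and rank 1152 in replicate 1 and signal 65.3 and rank 1464 in replicate 2. The cyclin E gene cye-1 had a weaker peak, 568 bp upstream of its start (chrI:6780033-6780428, signal 119, rank 1495), with signal 49.9 and rank 2274 in replicate 1, and signal 69.0 and rank 1305 in replicate 2. That summit lies 80 bp from the start of pqn-21 on the opposite strand, and cye-1 lost it when peaks went to the nearest start alone. A far stronger peak lay in an intron of cye-1, 999 bp downstream of the first start, with signal 557 and rank 38. It ranked 44 and 33 in replicates 1 and 2, and its summit is 5 bp from a tRNA gene. Genes for tRNAs, snoRNAs or snRNAs stood within 100 bp of 0 of the 12 peaks in the windows of the cell cycle genes and of 14.9% of all nuclear thresholded peaks.

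The B-type cyclins had no thresholded summit. The genes cyb-1 and cyb-3 had 3 pooled regions each in their windows, the strongest with signal 55.0 (rank 9137) for cyb-1 and signal 58.4 (rank 7757) for cyb-3. These lay 18 bp downstream of a cyb-1 start and 13 bp upstream of a cyb-3 start. No region of any list fell in the windows of cyb-2.1 and cyb-2.2. These are closely related copies: 46.8% of the 36 bp words of the cyb-2.1 gene also occur in cyb-2.2, as do 13.5% of those in its window. How reads shared by such copies were treated is not given in the sources used here, so their values are uncertain.

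The CDK inhibitor genes cki-1 and cki-2 lie next to each other on chromosome II, with starts 5259 bp apart on the same strand, and 4 thresholded peaks lay around them. The gene cki-2 had the 1 of these that fell in a window, 866 bp upstream of its first start (signal 203, rank 541). It had signal 77.4 and rank 909 in replicate 1, and signal 123 and rank 411 in replicate 2. The summit overlaps T05A6.19, an annotated non-coding RNA gene. A stronger peak lay between the genes, 2925 bp upstream of cki-2 (signal 240, rank 373), with ranks 611 and 298 in replicates 1 and 2. Its nearest coding start is that of cki-1. A further peak lay in cki-2, 1118 bp downstream of the first start, in an intron (signal 110, rank 1755). The fourth lay 1553 bp upstream of cki-1 with signal 184 and rank 672, which is 53 bp beyond its window, so cki-1 did not count as having a summit.

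All 4 sites had a region in each replicate list, and the thresholded list was made to hold such reproducible peaks. The site upstream of cki-1 ranked 723 in replicate 1 and 589 in replicate 2, and the intronic site of cki-2 ranked 1986 in replicate 1 and 1676 in replicate 2. Nearer to cki-1, a region 334 bp upstream of its start stayed below the threshold (signal 95.2, rank 2286), with rank 4524 in replicate 1 and rank 1833 in replicate 2. Pooled regions of lower signal lay between the genes, the strongest 2095 bp upstream of cki-2 (signal 98.7, rank 2109). The 4 summit windows are shown because every one of them holds an E-box, with 3 at the site 866 bp upstream of cki-2. An E-box is common in such windows, at 49.4% of all nuclear thresholded peaks.
upstream of cki-1 (chrII:7809637-7809736): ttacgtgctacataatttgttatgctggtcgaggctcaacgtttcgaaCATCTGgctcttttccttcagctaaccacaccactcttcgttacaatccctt
between cki-1 and cki-2 (chrII:7813524-7813623): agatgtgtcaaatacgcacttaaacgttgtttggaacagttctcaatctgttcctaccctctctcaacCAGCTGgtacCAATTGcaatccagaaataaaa
upstream of cki-2 (chrII:7815583-7815682): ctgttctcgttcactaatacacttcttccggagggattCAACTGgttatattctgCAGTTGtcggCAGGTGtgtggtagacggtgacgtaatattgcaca
cki-2 intron (chrII:7817567-7817666): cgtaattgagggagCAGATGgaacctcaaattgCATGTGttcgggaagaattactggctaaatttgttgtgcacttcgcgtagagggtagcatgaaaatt

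**Figure D3:**
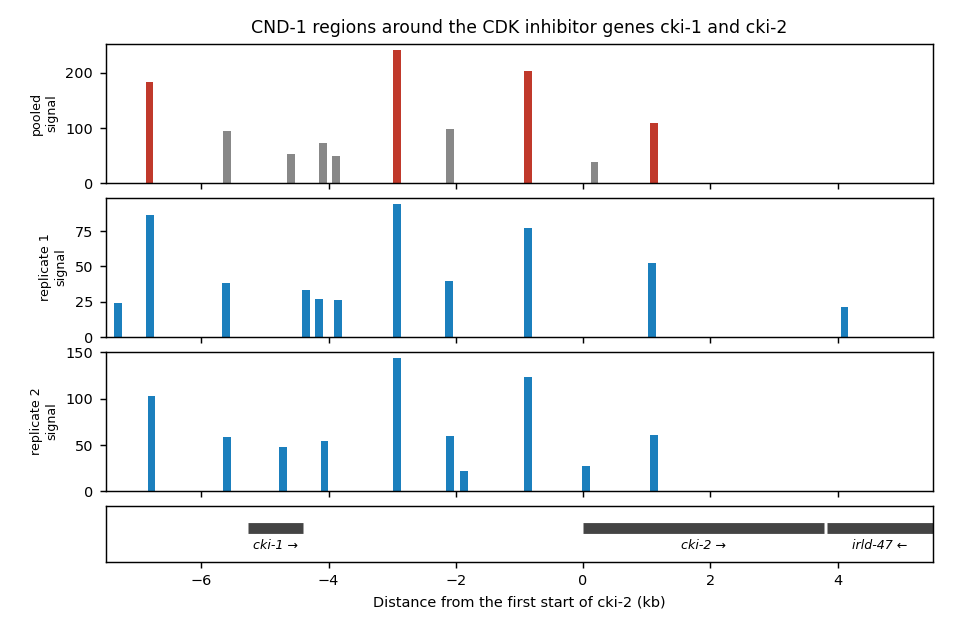
Signal of CND-1 regions (y axis, authors' value) by distance from the first start of cki-2 (x axis, kb), in the pooled list and in each replicate, with the genes below. Red bars are the 4 thresholded peaks, at signals 184, 240, 203 and 110 from left to right, grey bars are pooled regions below the threshold and blue bars are regions of the replicate lists.

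Among the phosphatase genes, cdc-14 and cdc-25.2 had thresholded summits. CDC-14 removes phosphates placed by CDKs, and in C. elegans it acts to keep precursor cells quiescent. The peak of cdc-14 lay 311 bp upstream of its nearest start with signal 148 and rank 1000. In replicate 1 it had signal 63.2 and rank 1358, and in replicate 2 signal 83.9 and rank 904. The gene ttc-4, on the opposite strand, has its start 976 bp from the summit. The gene cdc-25.2 had 4 peaks from 3000 bp upstream of its first coding start to its end, the largest number among the 38 genes. A pair of them lay in its windows: 817 bp upstream of the first coding start (signal 115, rank 1592) and 17 bp upstream of an internal start 5705 bp further on (signal 116, rank 1579). The strongest lay outside, 1818 bp upstream of the first coding start (signal 371, rank 145), and the last lay 1192 bp downstream of that start (signal 123, rank 1403).

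The 4 sites at cdc-25.2 differed in how well the replicates matched. The strongest had signal 117 and rank 368 in replicate 1, and signal 261 and rank 66 in replicate 2. The site at the internal start had signal 61.1 and rank 1460 in replicate 1, and signal 64.4 and rank 1500 in replicate 2. Its replicate summits lay 0 and 92 bp away. The site 817 bp upstream had signal 61.8 and rank 1417 in replicate 1, and signal 50 and rank 2578 in replicate 2, and there the replicate summits lay 66 and 3 bp away. The annotated gene begins with a longer non-coding transcript, so the sites upstream of the first coding start lie within the gene. The summit windows of cdc-14 and of the strongest cdc-25.2 site are shown because they are the strongest of each gene. Both hold E-boxes, as do 49.4% of all nuclear thresholded peaks.
cdc-14 promoter (chrII:5593688-5593787): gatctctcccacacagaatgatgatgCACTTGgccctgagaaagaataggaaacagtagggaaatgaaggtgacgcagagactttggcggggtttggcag
cdc-25.2, strongest site (chrV:1575823-1575922): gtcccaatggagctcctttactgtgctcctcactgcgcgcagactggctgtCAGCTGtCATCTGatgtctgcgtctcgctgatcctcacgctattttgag

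The other phosphatase genes had weak regions or none. The germline phosphatase gene cdc-25.1 had a pooled region 289 bp downstream of its start (signal 55.2, rank 9037), and cdc-25.3 had one 348 bp downstream (signal 34.4, rank 26314). No region of any list lay in the window of cdc-25.4. Of the inhibitory kinase genes, wee-1.3, for the Myt1 kinase, had a pooled region 369 bp upstream (signal 86.6, rank 2805) that ranked 5218 in replicate 1 and 1852 in replicate 2. The gene wee-1.1, for a Wee1 kinase, had none, and its nearest thresholded summit was 17.3 kb from its start.

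Genes of the ubiquitin ligases had regions below the threshold and no thresholded summit. Of the 7 genes for APC/C subunits and activators, 7 had a pooled region, against 50.2% of all genes, and 0 had a thresholded summit (95% exact interval 0 to 41.0%), against 7.38%. With 7 genes, a count of 0 cannot be told apart from that share. The strongest was at emb-30, for an APC/C subunit, 220 bp downstream of its start (signal 101, rank 2012), just below the lowest signal of the thresholded list, 103. It ranked 8149 in replicate 1 and 2087 in replicate 2. The activator gene fzr-1, for the Cdh1 homologue, had a pooled region 45 bp downstream of its start (signal 66.7, rank 5448), and fzy-1, for the Cdc20 homologue, had one 365 bp downstream (signal 51.3, rank 10998). The subunit genes mat-2, mat-3, mat-1 and emb-27 had regions ranking 12389, 18608, 18519 and 23892 in the pooled list. Each of these 4 lacked a region in the window in at least 1 replicate list.

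A pair of APC/C genes had a thresholded peak beyond the window. A peak 2184 bp upstream of emb-30 (chrIII:9443550-9443746) had signal 416 and rank 102, with ranks 98 and 110 in replicates 1 and 2, and it lies nearest to the start of pir-2. Another lay 1843 bp upstream of fzr-1 (chrII:9646111-9646506, signal 138, rank 1140), with ranks 1031 and 1404 in replicates 1 and 2, nearest to the start of sqv-8. When the window reached 3000 bp upstream and 1000 bp downstream, these 2 genes, cyd-1 and cki-1 joined the 11, which made 15 of 38 members against 10.3% of all genes. For the SCF ligase, the cullin gene cul-1 had a pooled region 343 bp downstream of its start (signal 86.9, rank 2771), ranked 4238 and 3435 in replicates 1 and 2. The F-box gene lin-23 had one 884 bp upstream (signal 49.4, rank 12166), absent from replicate 1.

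Of the mitotic kinase genes, bub-1 had the weakest of the 12 peaks. BUB-1 acts at kinetochores and in the spindle checkpoint. Its peak (chrI:7251512-7251907) lay 231 bp upstream of the start with signal 108 and rank 1809. It had signal 48.2 and rank 2459 in replicate 1, and signal 60.0 and rank 1716 in replicate 2. The promoter is shared with lin-61, a synMuv B gene whose start lies 428 bp away on the opposite strand. The Aurora A gene air-1 had a pooled region 239 bp upstream of its start (signal 87.9, rank 2711), with ranks 3178 and 7561 in replicates 1 and 2. The Polo kinase gene plk-1 had a weak one (signal 36.3, rank 23818). The Aurora B gene air-2 had no pooled region and 1 region in replicate 2, ranked 8621.

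The 12 summits in the windows shared a position close upstream of the start. All 12 lay upstream of the start they were nearest to within the gene, at a median of 306 bp and a range of 17 to 866 bp. Of the 12, 9 lay in promoters, here 500 bp upstream to 100 bp downstream of a coding start of any gene. The cye-1 summit counts through the start of pqn-21, since it lies 568 bp from the start of cye-1. Of all nuclear thresholded peaks, 36.6% lay in promoters. The window itself favours such positions, so the 9 of 12 were not read as particular to these genes. For 8 of the 12 peaks the summit also fell in the window of at least 1 other coding gene, and for 9 of them the nearest start was that of the cell cycle gene.

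Signals of the 12 peaks were ordinary for the list. Their median signal was 141 and their median rank 1101, against a median signal of 150 for all nuclear thresholded peaks, and 5 of the 12 were among the stronger 970. Every one had a summit within 100 bp in each replicate list, and 10 of the 12 had one within 50 bp in each. The largest gaps were 66 bp in replicate 1 and 92 bp in replicate 2, and 9 of the 12 ranked within 1940 in both. The exceptions were cye-1 and bub-1 in replicate 1 and the site 817 bp upstream of cdc-25.2 in replicate 2. Replicate signals had a Spearman correlation of 0.81 over these 12 peaks, and of 0.71 over the 1854 nuclear peaks matched in both lists. The peaks share their libraries, and the list was made to hold reproducible peaks, so these values describe the list.

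**Figure D4:**
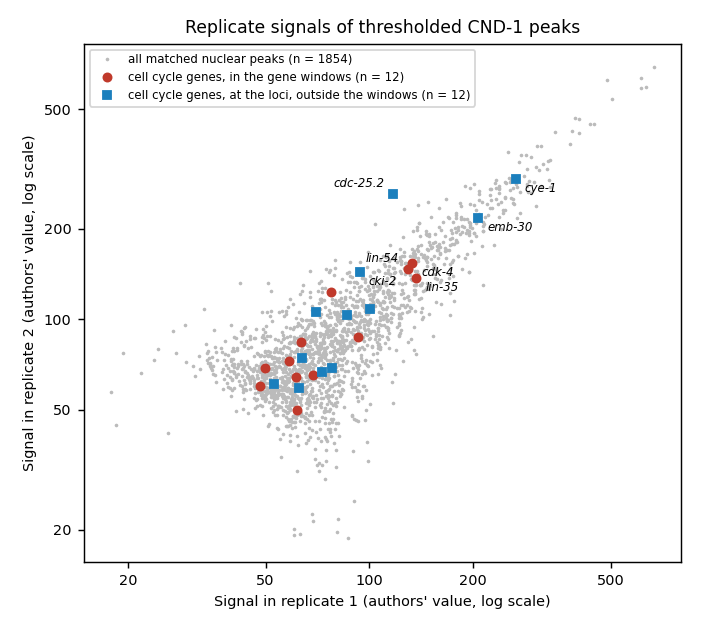
Signal in replicate 1 (x axis) and replicate 2 (y axis), both on log scales, of 1854 nuclear thresholded peaks (grey), of the 12 peaks in the windows of cell cycle genes (red circles) and of the 12 further peaks at their loci (blue squares). The peaks of lin-54, cdk-4 and lin-35 lie close together, between 129 and 137 in replicate 1, and the strongest site of cdc-25.2 lies above the main band of points, with 117 in replicate 1 and 261 in replicate 2.

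Peaks inside the genes and further upstream added as many sites again. From 3000 bp upstream of the first coding start to the end of the gene, a stretch chosen after the values were seen, 15 of the 38 members held at least 1 thresholded summit (39.5%), against 11% of all genes. At least 2 summits were held by 5 members (13.2%), against 1.54% of all genes, namely cyd-1, cye-1, cki-2, lin-9 and cdc-25.2. The loci held 24 peaks in all, 12 in the windows and 12 outside them. A longer stretch offers more room for a summit, and the stretch searched had a median of 5893 bp in the members, against 5024 bp in all genes. Its median was 6895 bp in the members with at least 2 summits and 5537 bp in the members with none. It was 15527 bp for cyd-1, with 3 summits, and 10842 bp for cdc-25.2, with 4, while the 11087 bp of mat-2 held 0. The part of length in these counts was not tested.

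**Figure D5:**
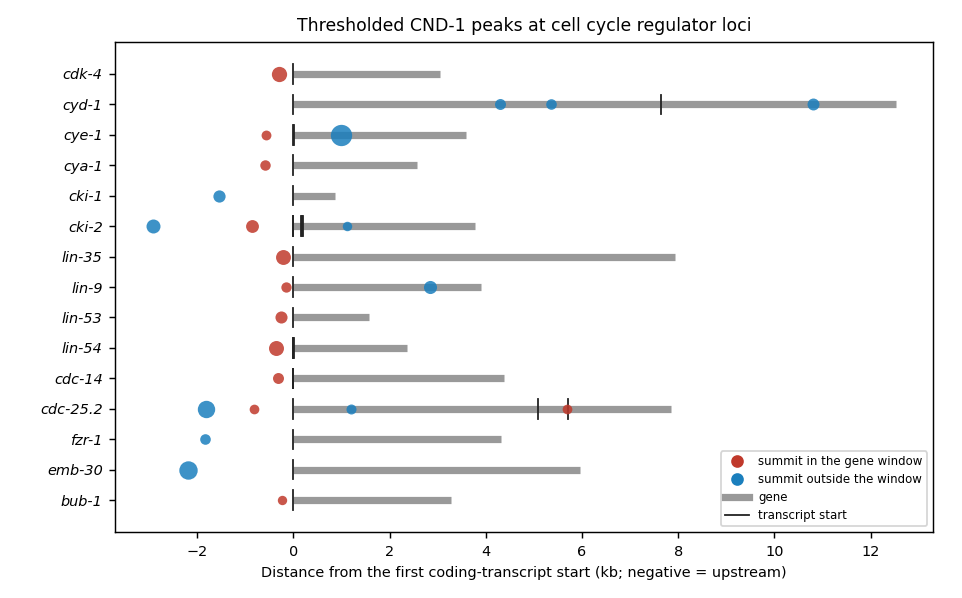
Thresholded CND-1 peaks from 3000 bp upstream of the first coding start to the gene end (x axis, kb from that start, negative is upstream) at the 15 cell cycle genes that hold any. Point area grows with signal, and red points lie in the gene windows and blue points outside them. Grey bars run from the first coding start to the gene end, and black ticks are coding-transcript starts. The annotated gene cdc-25.2 begins further upstream than its bar. The largest points are the intronic site of cye-1 (signal 557), the site upstream of emb-30 (signal 416) and the strongest site of cdc-25.2 (signal 371).

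The letters of the E-box were counted around the 12 summits. An E-box stood in the 100 bp around 6 of the 12 summits, against 49.4% of all 1940 nuclear peaks. For promoter peaks alone it was at 5 of 9, against 47.3% of 710. The form CAGATG, read on either strand, was at 0 of the 12, against 17.4% of all peaks. For promoter peaks alone it was at 0 of 9, against 11.8%. The form CAGCTG was at 1 of the 12 (8.33%), against 6.86%, and in windows of 200 bp at 4 of the 12 (33.3%), against 10.7%. The 6 sites with an E-box were those of cdk-4, lin-35, cki-2, lin-53 and cdc-14 and the internal start of cdc-25.2.

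Letters linked with cell cycle promoters were counted in the same windows on both strands. The letters TTTGAA, the core of an element that DREAM binds in mammals, were at 5 of the 12 summits (41.7%), against 10.6% of all peaks and, for the promoter peaks alone, 4 of 9 against 13.7%. Within 50 bp windows they were at 1 of the 12 (8.33%), against 3.81%, and within 200 bp windows at 7 of the 12 (58.3%), against 25.6%. In the 100 bp windows they were at lin-54, lin-53, lin-9, bub-1 and the site 817 bp upstream of cdc-25.2. In the 300 bp around the first start, however, TTTGAA occurred in 25 of the 38 genes (65.8%) and in 62.5% of all genes. The E2F letters TTCCCGC were at 0 of the 12 summits, against 2.63% of all peaks, and TTGGCGC at 1, that of lin-54, against 1.80%. Around the first starts, TTCCCGC occurred in 4 of the 38 genes, which were cdk-2, cyd-1, efl-1 and lin-53, against 3.22% of all genes, and TTGGCGC in 0 of 38 against 2.17%. CAGATG and CAGCTG are themselves E-boxes. TTTGAA and TTGGCGC can share letters with an E-box, and at 1 of the 12 summits, that of lin-53, the TTTGAA overlaps the E-box CATTTG.

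Counts were also set against genes with 1 start or with 2 or more, and separately against genes of the same chromosome. Of the 25 members with 1 coding start, 6 had a thresholded summit, against 5.96% of such genes, and of the 13 with 2 or more starts, 5 had one, against 11.4%. On chromosome II, which holds 13 of the members, 2 had a summit, against 6.99% of its genes. On III it was 2 of 8, against 9.24%. On the first chromosome it was 4 of 9, against 10.4%. IV, V and X held 3, 4 and 1 members, with 1 gene at a summit on each, against 6.37%, 4.25% and 9.81% of their genes.

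Other genes of the cell cycle were taken from 8 lists, of which 95 genes matched the annotation. A thresholded summit lay in the window of 17 of them (17.9%), against 7.38% of all genes, and 76 (80.0%) had a pooled region, against 50.2%. The list of replication licensing and S phase genes had 5 of 19. The other DREAM and synMuv B genes had 3 of 10, the other CDK and cyclin genes 3 of 15, and the other APC/C, securin and separase genes 2 of 8. Chromosomal passenger and mitotic kinase genes had 2 of 13, spindle checkpoint genes 1 of 10, other SCF and cullin genes 1 of 12 and DNA damage checkpoint genes 0 of 8.

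The strongest of these 17 was at tam-1, a gene of the synMuv B class, 1278 bp upstream of its start (signal 235, rank 394). Next came cdc-7, for a replication kinase, 1410 bp upstream (signal 186, rank 656), and ify-1, the securin gene, 205 bp upstream (signal 174, rank 730). The site at cdc-7 lies nearer to the start of vpr-1. The site at ify-1 ranked 3500 in replicate 1 and 348 in replicate 2, so the replicates differed there. Then followed mcm-7, a subunit of the replicative helicase (signal 152, rank 944), the mitotic kinesin gene zen-4 (signal 143, rank 1063), and cdk-9, for a transcriptional CDK (signal 141, rank 1094). The summit at zen-4 lies 91 bp from a gene for a tRNA, snoRNA or snRNA.

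The remaining 11 ranked below these. They were the kinase gene pct-1 (rank 1213), pcn-1 for the sliding clamp of replication (rank 1269), cul-4 (rank 1286), the geminin gene gmn-1 (rank 1458), the phosphatase gene gsp-2 (rank 1636) and cdk-11.2 (rank 1679). Lower still stood the checkpoint gene mdf-1 (rank 1687), the APC/C gene gfi-3 (rank 1788), lin-61 through the peak it shares with bub-1 (rank 1809), the ribonucleotide reductase gene rnr-1 (rank 1870) and lin-13 (rank 1906). As at ify-1, the replicates differed at gfi-3, with rank 6044 in replicate 1 and 1348 in replicate 2. They also differed at lin-13 (4749 and 1154) and rnr-1 (4461 and 1745). The summits at gmn-1, gsp-2 and rnr-1 lie nearer to the start of another coding gene. Of the 17 genes, 4 were among the stronger 970 peaks, the count being 5 for the 11 members. The lists were drawn up with earlier results of these data known, and their shares were not tested.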

How the data were processed

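CND-1 ChIP-seq was analysed from 4 peak lists of 2 biological replicates. Per the labels, chromatin was sonicated to 200 to 800 bp and the assembly is ce11. Per the text the authors deposited beside the lists, they made 1 list of peaks and background per replicate and 1 from both, each with a further file that is also named for control-normalised signal and was not analysed here, and derived the thresholded list from these 3. The signal deposited by the authors is a value of their peak caller, and it was used to describe and rank peaks within a list. The −log10 q-value deposited by the authors reached its maximum of 3.46 in 8 of the 12 peaks described and was not used for ranking. The sources used here do not name the peak caller, the aligner or the reproducibility limit.

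Gene positions came from Ensembl release 115 (WBcel235, the same assembly, with 0 regions past a chromosome end) and sequence from the RefSeq genome of that assembly. Mitochondrial peaks were left out. Starts are the 29314 starts of protein-coding transcripts. Summits within 100 bp counted as the same site. Shares carry 95% exact Clopper-Pearson intervals (SciPy 1.17.1, Python 3.11.15). Window assignment was tested on 1000 simulated summits, with 0 wrong. With 1 group there was no comparison of conditions, and no test was made. The members, the lists and the motifs were chosen with earlier results of these data known. The text names every member, with full values for those with a thresholded summit, every gene of the further lists with such a summit and every coding gene that shares a summit. Locus stretches and shared words were chosen after the values were seen. Alternatives were other windows, starts, nearest genes, the stronger 970 peaks, each replicate alone, peaks away from tRNA, snoRNA and snRNA genes, and other sequence windows.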

Additional observations from a re-analysis of the deposited data

How the results depend on the processing

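The count of 11 members stayed between 8 and 15 under the other windows, starts and assignments, with the direction against all genes kept. It fell to 5 among the stronger 970 peaks, against 3.97% of all genes. With the nearest start alone it was 8, and the Rb, E2F and DREAM genes fell to 2 of 6, against 5.33% of all genes. The window of 500 bp upstream and 250 bp downstream gave 8 members (4.37% of all genes) and 10 of the 95 further genes. Those further genes fell to 4 among the stronger peaks, which is 4.21% against 3.97% of all genes. The wider window gave 2 of 7 APC/C genes, against 10.3% of all genes. Windows of 200 bp raised the summits with an E-box to 10 of 12, where 67.4% of all peaks had one. Leaving out each replicate gave 10 to 13 members, 12 to 17 further genes, 4 Rb, E2F and DREAM genes and 0 APC/C genes, against 7.17% and 7.20% of all genes. Of the 17 further genes, it kept 10 without replicate 2 and 15 without replicate 1. In the lists of 30000 regions it gave 28 to 30 members, against 51.1% and 50.1%. Using all transcript starts, chosen after seeing the data, gave 11 again. No paired analysis was possible because the 2 replicates belong to 1 group. Depth is unknown, so a gene without a region is not shown to be unbound.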

Other observations

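The 24 peaks at cell cycle loci differed in their E-boxes by position, a split made after the values were seen and not tested. Of the 12 outside the gene windows, 11 held an E-box within the 100 bp around the summit, against 6 of the 12 inside the windows. CAGATG, on either strand, stood at 5 of the 12 outside and at 0 of the 12 inside. Among all nuclear peaks an E-box was present at 51.8% of the 1001 intronic and intergenic peaks and at 47.3% of the 710 promoter peaks, and CAGATG at 22.0% and 11.8%. These classes do not match the split exactly: 1 of the 12 outside, that of emb-30, is a promoter peak, and of the 12 inside, 1 is intronic, 1 intergenic and 1 in another gene. The 5 sites with CAGATG were the first intronic site of cyd-1, the intronic site of cye-1 beside a tRNA gene, the site upstream of cki-1, the intronic site of cki-2 and the strongest site of cdc-25.2. The outside peaks had a median signal of 179, against 141 inside the windows.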
